A study of Mus musculus with 24 samples.

Results

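Anti-PD-1 was followed here across every treatment in which it was given to mice bearing Panc02 tumors, a mouse pancreatic cancer line. The samples were chosen by treatment alone. They were the 4 treatment pools with the antibody (anti-PD-1 alone, with anti-CTLA-4, with the peptide vaccine PancVAX, and with both) and the 4 matched pools without it (isotype control, anti-CTLA-4, PancVAX, and PancVAX with anti-CTLA-4). These 8 pools came from 16 RNA libraries of the 24 samples in the series, 8 with anti-PD-1 and 8 without. Each pool was sequenced as dissociated whole tumor and as an immune-enriched fraction from a Percoll density gradient, and these preparations were also the sequencing batches.

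All mice were male, wild-type C57BL/6 animals, 6 to 7 weeks old at implantation, that received Panc02 cells subcutaneously. Anti-PD-1 was given in repeated doses from day 12, PancVAX on days 12 and 19, and anti-CTLA-4 on days 15 and 22, with 100 μg of each antibody and a vaccine dose of 50 μg, which the methods give per peptide, and the labels give day 38 as the harvest. According to the methods, mice without PancVAX received PBS, a STING agonist was part of the vaccine, and isotype antibodies took the place of absent checkpoint antibodies. Tumors of 1 treatment were pooled before sequencing, and the number of mice per pool was not given in the sources used here, so that a *P* value below measures the spread between pools and not between mice.

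PD-1, the product of *Pdcd1*, is a receptor of activated T cells that binds PD-L1 (*Cd274*) and PD-L2 (*Pdcd1lg2*) on tumor and myeloid cells. When bound it recruits phosphatases such as SHP-2 (*Ptpn11*), which dampen signaling from the T cell receptor and CD28. It is known for its high and lasting expression on exhausted CD8+ T cells of tumors, and antibodies against it block ligand binding rather than transcription of the gene.

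Of 57355 cells that passed the quality limits, 8836 held UMIs, the counted RNA molecules, of both *Cd3e* and *Cd8a* (hereafter CD8+ T cells), and 17973 held UMIs of *C1qb* and none of *Cd3e* (hereafter C1qb+ cells). The markers that were not used to choose them matched the first set, in which *Cd3d* was detected in 93.3% of cells, *Cd8b1* in 93.2%, and *Cd4* in 1.12%. In the Percoll preparation 84.9% of these cells had a T cell receptor β (TRB) contig, against 0.396% of C1qb+ cells. *C1qb* itself was found in 14.5% of the CD8+ T cells, at 85.0 CPM (a gene's scaled share of the summed UMIs) against 5050 CPM in C1qb+ cells. The second set is called by its rule, since it also held cells with few macrophage transcripts.

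One library stood apart before any comparison. In the Percoll library of PancVAX plus anti-PD-1, 61.9% of barcodes passed the limits against 31.2% to 44.4% in the other Percoll libraries, and the C1qb+ cells had a median of 5 *C1qb* UMIs against 8 to 24 there. The same library had a TRB contig in 70.1% of its CD8+ T cells against 83.9% to 91.8% in the other Percoll libraries. With this pool taken from its whole-tumor library alone, the anti-PD-1 fold change turned sign for *C1qa*, *Fcgr1*, and *Mrc1* in C1qb+ cells and for *Ifng* in CD8+ T cells among the genes chosen by the naming rule or for their role, and these values are given beside the genes. Within 1 of the preparations or both, the sign differed from that of the summed pools for *Ctla4*, *Cxcl2*, *Havcr2*, *Ifng*, *Itgb7*, *Mki67*, and *Pdcd1lg2* in CD8+ T cells and for *C1qa*, *Ccl5*, *Cd163*, *Cd74*, *Fcgr1*, *Fcgr4*, *H2-Aa*, *H2-Ab1*, *Mrc1*, and *Vcan* in C1qb+ cells. Pools held 639 to 1721 CD8+ T cells with 3477230 to 7297609 UMIs and 1844 to 2827 C1qb+ cells with 8101447 to 11741416 UMIs. The Percoll preparation contributed a larger share of both sets with anti-PD-1 than without it in 4 of 4 matched pairs. It gave 54.7% to 64.5% of CD8+ T cells with the antibody and 38.2% to 60.9% without it, so that results were also computed within each preparation. Cell barcodes occurring in 2 or more libraries numbered 59 among CD8+ T cells and 225 among C1qb+ cells.

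The first question was whether anti-PD-1 changed how many of these cells were recovered. CD8+ T cells were 13.7% of passing cells with anti-PD-1 alone, 15.9% with both antibodies, 15.1% with PancVAX plus anti-PD-1, and 21.2% with all 3 agents. The matched pools without anti-PD-1 had 11.4%, 15.6%, 16.0%, and 13.7%, in the same order. The pools overlapped, and only the pool given all 3 agents lay above every other. The mean was 16.5% ± 3.29 with anti-PD-1 and 14.2% ± 2.10 without it (SD, n = 4 pools each). The difference of 2.32 percentage points was within the spread of the pairs (SD 3.73), with *P* = 0.375 by an exact two-sided permutation test over the 4 matched pairs, whose smallest possible value is 2 in 16 arrangements, so that it could not have passed 0.05. In whole-tumor libraries 4 of 4 pairs were higher with anti-PD-1, at 11.496% against 10.373%, 13.3% against 12.3%, 19.7% against 16.1%, and 18.2% against 12.3%, a mean difference of 2.91 points with the smallest *P* this exact test allows. In Percoll libraries 2 of 4 pairs were higher and the mean difference was 1.56 points. Without the pair that had PancVAX and anti-CTLA-4, the mean difference over both preparations was 0.567 points, and without the pair that had PancVAX alone it was 3.37 points.

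C1qb+ cells were 29.98% ± 5.77 of passing cells with anti-PD-1 and 34.2% ± 2.42 without it. With the antibody 3 of 4 pairs were lower, with differences of -6.13 points in the pair without other agents, -7.97 points with PancVAX, and -6.56 points with PancVAX and anti-CTLA-4, and the pair given anti-CTLA-4 without vaccine differed by 3.95 points. The mean difference was -4.18 points, with *P* = 0.25 by the same exact test. It was -1.95 points when computed from Percoll libraries and -3.72 points from whole tumor. In the PancVAX pair, which includes the library that stood apart, C1qb+ cells were 28.8% against 34.5% in whole tumor and 22.7% against 31.2% in Percoll libraries. Shares of cells depend on dissociation and enrichment as well as on the tumor.

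**Figure D1:**
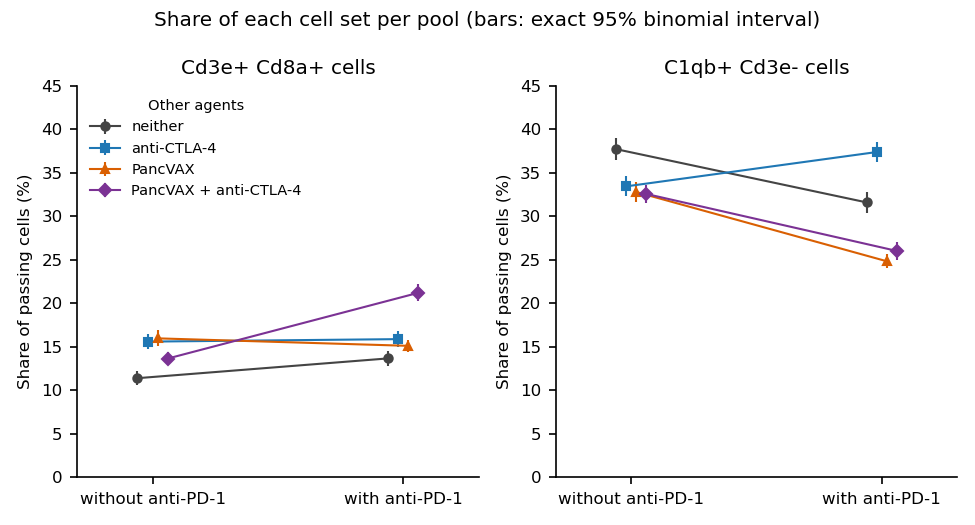
Share of passing cells (%, y axis) that were CD8+ T cells (left) or C1qb+ cells (right) in the 8 pools, without and with anti-PD-1 on the x axis. Lines join pools that received the same other agents and bars are exact 95% binomial intervals, which cover counting error only. CD8+ T cells lay between 11.4% and 21.2%, and the lines run in both directions in both panels.

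The second question was whether anti-PD-1 changed gene expression within each set. In CD8+ T cells, none of 10402 genes tested was called (0%) by edgeR's quasi-likelihood test, with PancVAX and anti-CTLA-4 as covariates and a call set at a Benjamini-Hochberg adjusted *P* below 0.05 with an absolute log2 fold change above 0.5. The smallest adjusted *P* was 0.999, and 441 genes (4.24%) had an unadjusted *P* below 0.05, 245 higher (2.36%) and 196 lower (1.88%). DESeq2 called 6 genes (0.0577%), which are described with the leading genes, and edgeR called 16 without a filter on low counts (0.0859%). In C1qb+ cells edgeR called none of 12239 genes (0%), with a smallest adjusted *P* of 0.401 and 376 genes below an unadjusted 0.05, 196 higher (1.6%) and 180 lower (1.47%), whereas DESeq2 called 3 (0.0245%) and edgeR without that filter 4 (0.0192%). These values are sums over all cells of a set, so that fewer cells expressing a gene and less RNA per cell cannot be told apart.

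The same fits show what the 8 pools could resolve. In CD8+ T cells the 95% interval of the anti-PD-1 fold change lay within ±0.5 on the log2 scale for 64.6% of genes and within ±1 for 93.4%. In C1qb+ cells the corresponding shares were 61.0% and 88.7%. PancVAX, measured by 4 against 4 of these same pools, had 1039 genes called in CD8+ T cells (9.99%), of which 665 were higher and 374 lower. Its median standard error, 0.128, equaled that of anti-PD-1. Median UMIs per CD8+ T cell were 3367 to 4209.5 in vaccinated and 4333.5 to 5752 in unvaccinated libraries. In whole tumor 40.4% to 47.2% of barcodes passed the limits with PancVAX and 32.6% to 34.8% without it. The part of these differences in the PancVAX calls was not tested. In C1qb+ cells PancVAX had 0 calls (0%) and 1675 genes (13.7%) with an unadjusted *P* below 0.05. Anti-CTLA-4 had 0 calls in both sets (0% and 0%), with 419 genes (4.03%) and 349 genes (2.85%) below an unadjusted 0.05. No test of the difference between the agents' effects was made.

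**Figure D2:**
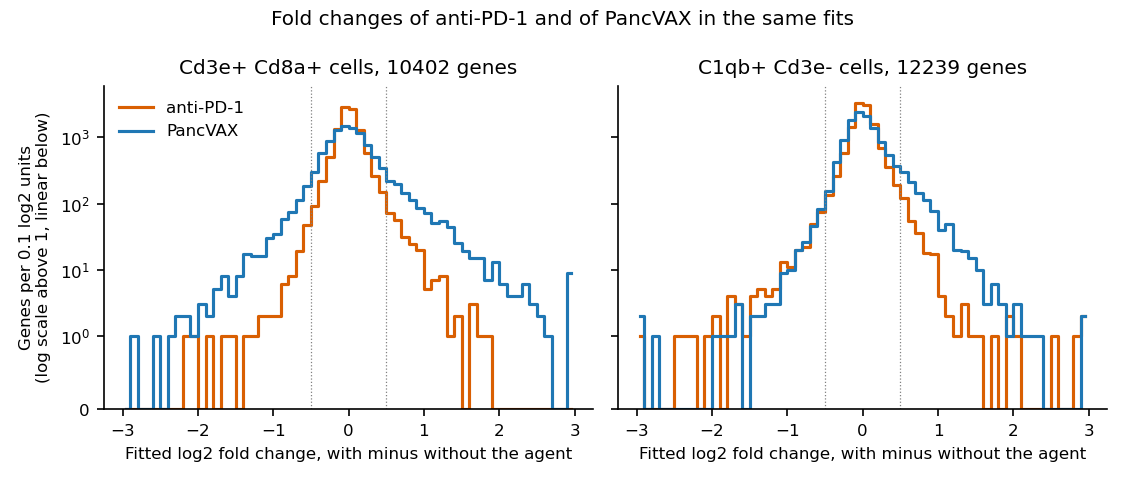
Number of genes (y axis, logarithmic above 1) by fitted log2 fold change (x axis, bins of 0.1) for anti-PD-1 and for PancVAX in CD8+ T cells (left) and C1qb+ cells (right). The most extreme values were drawn in the outermost bins and dotted lines mark ±0.5, which 3.11% of genes passed for anti-PD-1 and 16.3% for PancVAX in CD8+ T cells.

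*Pdcd1*, the gene of the antibody's target, was transcribed in CD8+ T cells of every pool. Its level, in CPM scaled between pools by the trimmed mean of M values (TMM), was 435 with anti-PD-1 alone, 505 with both antibodies, 295 with PancVAX plus anti-PD-1, and 403 with all 3 agents. In the matched pools without anti-PD-1 it was 423, 399, 322, and 331. The groups overlapped, and 3 of 4 pairs were higher with the antibody. The fitted log2 fold change was 0.14 (95% interval, -0.04 to 0.32, unadjusted *P* = 0.124), and a change as large as 1 in either direction lay outside the interval. The fold change was 0.22 with the PancVAX plus anti-PD-1 pool from whole tumor alone, 0.25 within whole tumor, and 0.03 within the Percoll preparation. For PancVAX in the same fit, the *Pdcd1* fold change was -0.39 on the log2 scale, which passed the adjusted *P* (0.00822 by edgeR) but not the fold limit. In C1qb+ cells *Pdcd1* was near absent, at 0.542 to 4.66 CPM over all pools.

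In CD8+ T cells the mean level of the ligand gene *Pdcd1lg2* was 54.3 CPM with anti-PD-1 and 52.9 CPM without it. Its log2 fold change was 0.04 (95% interval, -0.12 to 0.20). *Cd274* was at 43.3 and 42.3 CPM there, with 0.03 (95% interval, -0.26 to 0.33). The mean of *Pdcd1lg2* was lower in C1qb+ cells, at 14.6 CPM with anti-PD-1 and 11.7 CPM without it. The values that follow are for C1qb+ cells. *Cd274* ranged from 84.2 to 112 CPM with anti-PD-1 and from 73.7 to 99.6 CPM without it, and the groups overlapped (log2 fold change, 0.14, with a 95% interval of -0.18 to 0.46), and it was 0.22 with the PancVAX plus anti-PD-1 pool from whole tumor alone. *Pdcd1lg2* was 13.6, 16.0, 12.8, and 15.9 CPM in the pools with anti-PD-1 alone, with both antibodies, with PancVAX, and with all 3 agents. Without anti-PD-1 the matched pools had 11.8, 11.4, 12.6, and 10.9 CPM. Every pool with the antibody lay above every pool without it, by a narrow margin in the PancVAX pair. The fold change was 0.32 (95% interval, 0.05 to 0.58, unadjusted *P* = 0.0249), which did not pass adjustment (adjusted *P* = 1.00 by edgeR), and 5.65% of all tested genes were higher in 4 of 4 pairs. The share of all tested genes whose groups do not overlap was not counted. The costimulatory ligand *Cd86* was also higher in 4 of 4 pairs, at 90.6 to 113 CPM against 79.3 to 93.1 CPM (log2 fold change, 0.22; unadjusted *P* = 0.0426). Of the 15 tested members of the ligand list, 10 had positive and 5 negative fold changes, 4 were higher in 4 of 4 pairs, and the median was 0.05 against 0.00 over all genes.

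The list of PD-1 and T cell receptor signaling genes covers the steps below the receptor in CD8+ T cells. None of its 18 members was called, 17 had 95% intervals within ±0.5, and the median fold change was -0.04, against 0.00 over all genes. *Ptpn11*, which encodes the phosphatase SHP-2, had -0.05 and the related phosphatase gene *Ptpn6* -0.27 (95% interval, -0.58 to 0.04). *Cd28* had -0.10, the kinase genes *Lck* and *Zap70* -0.07 and 0.02, and the adaptor genes *Lat* and *Lcp2* -0.00 and -0.01. *Cd226*, a costimulatory receptor gene, was the only one of the 18 below an unadjusted *P* of 0.05, with -0.24 (unadjusted *P* = 0.0358). Its fold change was -0.15 with the PancVAX plus anti-PD-1 pool from whole tumor alone and -0.09 within whole tumor.

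None of the inhibitory receptor genes was called. Of the 12 tested, 4 had positive and 8 negative fold changes, with a median of -0.04. *Tigit* had 0.23 (95% interval, 0.05 to 0.41, unadjusted *P* = 0.0180) and was higher with anti-PD-1 in 4 of 4 pairs, as were 5.72% of all tested genes, and its groups overlapped at 239 to 324 CPM against 183 to 310 CPM. *Lag3* had 0.11, *Havcr2* (TIM-3) -0.03, and *Ctla4* -0.04. *Klrc1*, which encodes the inhibitory receptor NKG2A, had -0.18 (unadjusted *P* = 0.0310), with -0.04 within whole tumor and -0.32 within the Percoll preparation. The 95% intervals were -0.13 to 0.35 for *Lag3* and -0.28 to 0.22 for *Havcr2*.

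Transcription factors linked to exhaustion had a median fold change of 0.07 over 13 tested members, 10 of them positive. *Tox*, which is required to form exhausted CD8+ T cells, was 227, 231, 88.9, and 129 CPM with anti-PD-1 and 202, 224, 110, and 90.3 CPM in the matched pools without it. The pools fell into a vaccinated and an unvaccinated group for this gene, whichever antibody was given. Its anti-PD-1 fold change was 0.11 (95% interval, -0.13 to 0.34), whereas its PancVAX fold change was -1.08 (adjusted *P* = 0.000159 by edgeR). *Nr4a1* and *Nr4a2*, early response genes of T cell receptor signaling, had 0.26 and 0.33 with unadjusted *P* values of 0.0386 and 0.0269. The *Nr4a2* pairs differed by 0.14 without other agents, -0.17 with anti-CTLA-4, 0.67 with PancVAX, and 0.66 with both. The *Nr4a1* pairs differed by 0.38, -0.14, 0.64, and 0.13 in that order. For *Nr4a2* the interaction with PancVAX was 0.68 (unadjusted *P* = 7.63e-04 and adjusted *P* = 0.535 by edgeR). *Nr4a1* was 0.05 when the PancVAX plus anti-PD-1 pool was taken from whole tumor alone. The 11 genes of dissociation stress, which include other early response genes, had a median of 0.05.

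Stem-like and memory genes had a median of -0.13 over 15 tested members, with 10 negative and 0 lower in 4 of 4 pairs. *Tcf7*, the factor of the stem-like CD8+ T cells from which other exhausted cells arise, ranged from 27.0 to 48.3 CPM with anti-PD-1 and from 33.2 to 73.8 CPM without it (log2 fold change, -0.22, with a 95% interval of -0.68 to 0.23). Over 24 alternatives its fold change ran from -0.47 to 0.06 and changed sign in 1. *Xcl1*, a chemokine gene of these cells, had -0.35 (unadjusted *P* = 0.00775), and *Klf2* had -0.27. *Ccr7*, a homing receptor gene of memory cells, had -0.13.

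None of the 24 tested effector genes was called, and 1 of them, *Ccl5*, was below an unadjusted *P* of 0.05. *Gzmb*, which encodes granzyme B, was 586, 850, 1107, and 1308 CPM with anti-PD-1 and 731, 790, 1767, and 1178 CPM without it, in the order of the pairs used above. The groups overlapped and 2 of 4 pairs were higher (log2 fold change, -0.19, with a 95% interval of -0.51 to 0.12). *Prf1*, the perforin gene, had -0.28, with -0.08 within whole tumor and -0.42 within the Percoll preparation. *Ifng* had 0.02, or -0.14 with the PancVAX plus anti-PD-1 pool from whole tumor alone. *Ccl5*, a T cell chemokine gene, was higher in 4 of 4 pairs with a fold change of 0.17 (unadjusted *P* = 0.0448). It was 0.28 within whole tumor and 0.06 within the Percoll preparation. The *Ccl5* level followed the vaccine, at 3170.5 to 4848 CPM in unvaccinated and 11535 to 12780 CPM in vaccinated pools. Of these members 17 were negative and the median was -0.08. The lowest was *Gzmd* at -0.81, a granzyme gene of strongly activated cells, and the related *Gzmc*, *Gzme*, and *Gzmf* had -0.61, -0.48, and -0.64. None of these 4 passed an unadjusted *P* of 0.05.

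Proliferation, a response for which PD-1 blockade is known, was read from 20 cell cycle genes. *Mki67* was 56.5 CPM with anti-PD-1 alone, 95.6 with both antibodies, 105 with PancVAX plus anti-PD-1, and 88.5 with all 3 agents. In the matched pools it was 87.7, 66.7, 105, and 86.8 CPM. One pair was lower, one was higher, and the vaccinated pairs were nearly equal, with a fold change of 0.01 (95% interval, -0.33 to 0.35) and one of 0.14 with the PancVAX plus anti-PD-1 pool from whole tumor alone. The list had a median of -0.05, 15 members were negative, and 18 had intervals within ±0.5. *Mcm2*, a DNA replication licensing gene, had the smallest *P* of the list (-0.28, unadjusted *P* = 0.0317). *Pclaf* had -0.22.

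Activation receptors had a median of -0.01 over 14 members. *Icos*, a costimulatory receptor gene, had 0.33 (unadjusted *P* = 0.0142), at 86.3 to 208 CPM with anti-PD-1 and 68.7 to 171 CPM without it. *Tnfrsf9*, *Il21r*, *Ifngr1*, and *Ifnar1* had 0.17, 0.22, 0.10, and 0.04. Homing genes had a median of -0.04 over 13 members, among them the integrin genes *Itgal* (-0.18, unadjusted *P* = 0.0305) and *Itgb7* (-0.14). *Itgb7* was -0.03 with the PancVAX plus anti-PD-1 pool from whole tumor alone and 0.06 within whole tumor.

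Interferon-stimulated genes had the most one-sided signs of the 9 lists in CD8+ T cells. Of 17 tested members 16 had negative anti-PD-1 fold changes, with a median of -0.12, although only *Ifit2* (-0.51) was below an unadjusted *P* of 0.05 and 1 member was lower in 4 of 4 pairs. Over all genes 5.88% were lower in 4 of 4 pairs. *Rsad2*, which encodes viperin, an antiviral enzyme, makes the spread plain. It was 8.91, 4.46, 17.9, and 18.1 CPM with anti-PD-1 and 7.89, 5.51, 39.0, and 17.8 CPM without it. The PancVAX pool without antibody was far above the other vaccinated pools, and in the other pairs the values were close. Its fold change was -0.41 (95% interval, -0.88 to 0.06), and -0.20 with the PancVAX plus anti-PD-1 pool from whole tumor alone. It was -0.09 within whole tumor and -0.72 within the Percoll preparation. With PancVAX 13 of the 17 genes were called higher, with a median of 0.96 over the list, beside 6.39% of all tested genes. The parts of the peptides, of the STING agonist in the vaccine, and of the differences in UMIs per cell were not tested.

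**Figure D3:**
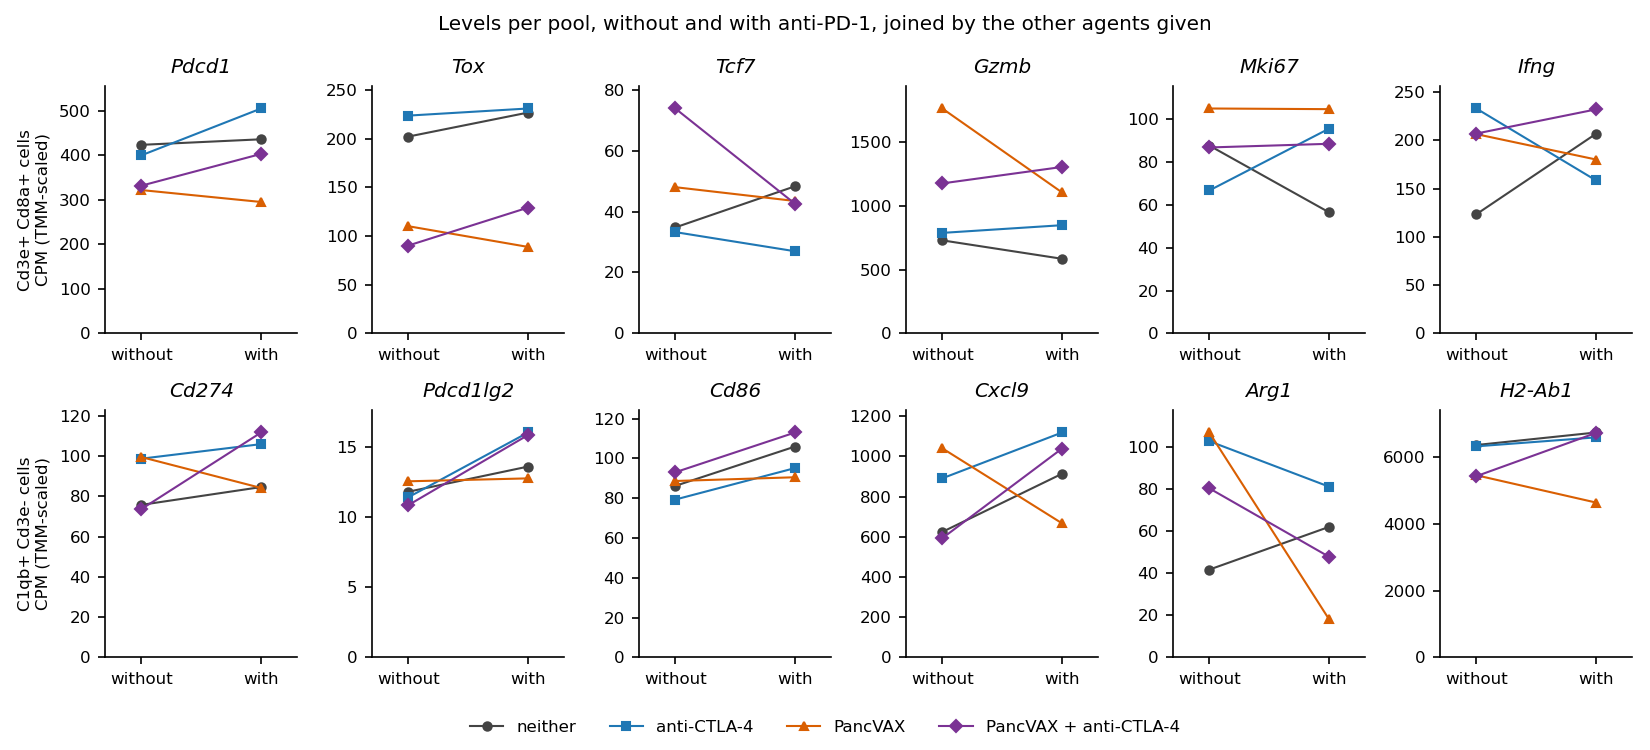
TMM-scaled CPM (y axis, from 0, with its own scale in each panel) of 6 genes in CD8+ T cells (top) and 6 in C1qb+ cells (bottom), without and with anti-PD-1 on the x axis, with lines joining pools that received the same other agents. Lines cross or run both ways for *Tcf7*, *Gzmb*, *Mki67*, and *Ifng*, and vaccinated and unvaccinated pools are separated for *Tox* whether or not anti-PD-1 was given.

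The genes with the smallest unadjusted *P* values in CD8+ T cells were mostly variable (V) segments of the T cell receptor, whose level in a pool follows the clones sampled. *Trbv1* was 22.0, 22.7, 25.97, and 26.9 CPM with anti-PD-1 and 64.3, 35.6, 60.1, and 35.4 CPM without it. Every pool with the antibody lay below every pool without it, with a fold change of -0.95 (95% interval, -1.31 to -0.59). The leading genes were picked by *P* over these same pools, so that separated groups and agreeing pairs follow in part from the choice. *Trbv15* had 61.2, 20.5, 90.8, and 66.5 CPM with anti-PD-1 and 30.1, 11.0, 55.6, and 39.8 CPM without it, which is higher in 4 of 4 pairs while the groups overlap. Its fold change was 0.83, and *Trav13-1* had 1.60, *Trav9-2* -2.18, *Trav8d-2* -1.62, and *Trav10n* -2.02. *Trav9-2* had 8, 17, 20, and 28 UMIs with anti-PD-1. It reached the limit of the filter on low counts in every pool without the antibody but not in every pool with it. Within the Percoll preparation *Trav8d-2* was -0.50, with an adjusted *P* of 0.996 by edgeR. DESeq2 called *Trbv1*, *Trav9-2*, and *Trav8d-2* lower and *Trbv15* and *Trav13-1* higher, with adjusted *P* values of 8.32e-04 to 0.0227. With the matched pair as a block, edgeR called *Trbv15* and *Cxcl2* (0.0192%). Reads of near-identical V segments can be split by counting, so that single α segments are uncertain.

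Receptor contigs of the Percoll cells, a separate library type from the same cells, give the number of clones behind these segments, which differed between pools. TRBV1 was carried by 1.37%, 1.94%, 1.36%, and 1.84% of CD8+ T cells with a TRB contig in the 4 pools with anti-PD-1, against 5.36%, 2.88%, 5.52%, and 2.04% in the matched pools. In the isotype pool 7 of its 12 TRBV1 cells shared 1 CDR3, and in the anti-CTLA-4 pool 8 of 16 did, whereas the PancVAX pool had 24 TRBV1 cells over 11 CDR3 sequences with 5 in the largest. TRAV9-2 was carried by 0.262%, 0.567%, 0.936%, and 1.04% of cells with a TRA contig in the pools with anti-PD-1 and by 4.57%, 3.89%, 3.08%, and 1.13% in the matched pools, and 15 of the 19 such cells of the anti-CTLA-4 pool shared 1 CDR3. TRAV13-1 was carried by 2.36%, 4.54%, 4.87%, and 2.81% of cells with a TRA contig in the pools with anti-PD-1. In the matched pools the shares were 1.02%, 0.82%, 1.8%, and 1.42%. This segment was on 24 cells of the pool with both antibodies, and 15 of them shared 1 CDR3. It was on 26 cells with 11 CDR3 sequences in the PancVAX plus anti-PD-1 pool and on 19 cells with 15 in the pool given all 3 agents. TRBV15 was carried by 2.29%, 0.645%, 3.64%, and 3.03% of CD8+ T cells with a TRB contig in the pools with anti-PD-1. In the matched pools it was on 0.893%, 0.541%, 1.84%, and 1.53%. The PancVAX plus anti-PD-1 pool had 24 TRBV15 cells over 16 CDR3 sequences with 3 in the largest.

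The remaining leading genes in CD8+ T cells, picked by *P* in the same way, included genes best known from other cell types. *Cxcl2*, a neutrophil-attracting chemokine gene of myeloid cells, had 107, 93.2, 159, and 214 CPM with anti-PD-1 and 64.3, 59.7, 96.9, and 152 CPM without it. It was higher in 4 of 4 pairs with overlapping groups (log2 fold change, 0.64, with a 95% interval of 0.36 to 0.92; DESeq2 adjusted *P* = 0.00498). Its direction depended on the preparation, at 0.99 within the Percoll preparation and -0.49 within whole tumor. *Ccl2*, a monocyte chemokine gene, had 1.39 at 2.98 to 12.4 CPM against 1.91 to 4.17 CPM, and 0.24 without the upper limits on genes and UMIs per cell. With 7, 9, 10, and 19 UMIs in the pools without anti-PD-1, *Ccl2* did not reach the limit of the low-count filter in every one of them. It did so in every pool with the antibody, so that its fold change is a description. Of the 5 neutrophil markers 3 were tested and had positive fold changes, *S100a8* at 0.65 (unadjusted *P* = 0.0209), *S100a9* at 0.95 (unadjusted *P* = 0.00505), and *Csf3r* at 0.11. Their summed level was 128 to 329 CPM with the antibody and 56.4 to 331 CPM without it. The 10 macrophage markers had a median of 0.05. *Cxcl2* was 0.64 after leaving out cells with UMIs of *C1qb* or *Cd4*, a setting in which *Ccl2* was not among the genes tested. The part of other cell types in the *Cxcl2* and *Ccl2* values was not tested further. *Ern1*, a sensor of the unfolded protein response, had 0.54 with non-overlapping groups (24.4 to 29.7 CPM against 15.4 to 19.8 CPM). *Ebf1*, a B cell factor, had -1.83 at 0.186 to 1.25 CPM against 2.20 to 5.20 CPM, beside 2 tested B cell markers, *Cd79a* and *Cd79b*, at -1.16 and -0.58, and it was -0.63 without those upper limits. *Ebf1* and *Trav10n* reached the limit of the low-count filter in every pool without anti-PD-1 and in no pool with it, so that their fold changes describe genes selected by the group in which they were high. *Cd4* had 0.67 and the epithelial genes *Krt8* and *Krt18* 0.68 and 0.67, whereas the other tested markers of these lists, *Cd40lg* and *Epcam*, had -0.20 and 0.07, and none of these passed an unadjusted *P* of 0.05.

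**Figure D4:**
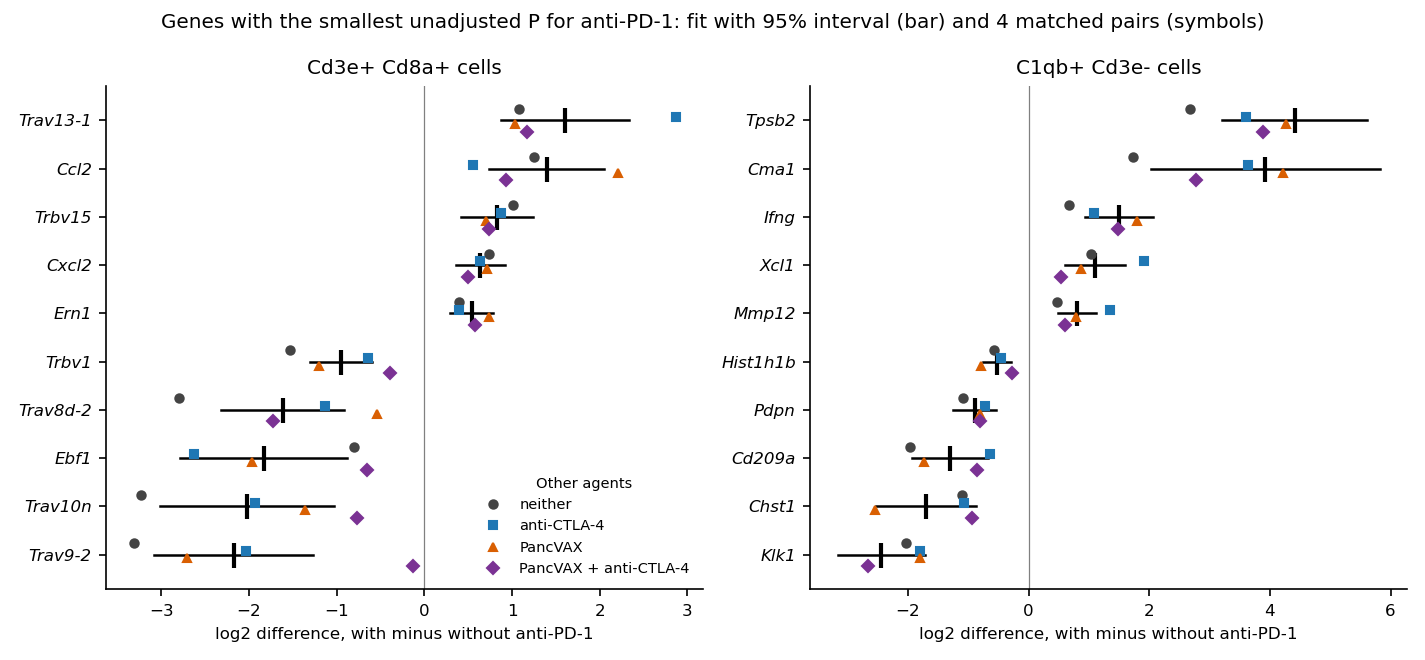
Log2 difference (x axis, with minus without anti-PD-1) of the 5 higher and 5 lower genes with the smallest unadjusted *P* in CD8+ T cells (left) and C1qb+ cells (right), as the fitted value with its 95% interval and as 4 matched-pair differences on log CPM. The 4 pair differences of each gene lie on 1 side of 0, the smallest in size being -0.13 for *Trav9-2* in the pair with PancVAX and anti-CTLA-4, and no gene shown passed adjustment by edgeR. The genes were chosen by *P* over these same pools, so that agreement of the pairs follows in part from the choice. *Tpsb2*, *Cma1*, *Klk1*, *Chst1*, *Ebf1*, and *Trav10n* passed the filter on low counts through the group in which they were high. *Ccl2* and *Trav9-2* (left) and *Ifng* (right) reached the limit of that filter in every pool of their higher group but not in every pool of the lower.

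In C1qb+ cells the identity markers had small fold changes, with a wider range between pools with anti-PD-1 than between pools without it. The 10 macrophage markers had a median fold change of -0.04 and a summed level of 20935 to 34092 CPM with anti-PD-1 and 28339 to 31664 CPM without it. *C1qa*, which was not used by the rule, had -0.03. Its lowest level, 2893 CPM, was in the PancVAX plus anti-PD-1 pool, which contains the library that stood apart. The other pools with anti-PD-1 had 4277 to 4858 CPM. All 10 markers had negative fold changes, whereas *C1qa* was 0.09 with the PancVAX plus anti-PD-1 pool from whole tumor alone. Fc receptor genes, whose products bind antibodies, had a median of -0.00 over 7 members, with every interval within ±0.5. *Fcgr1* had -0.06 and *Fcgr4* 0.07, and both were positive with the PancVAX plus anti-PD-1 pool from whole tumor alone, at 0.04 and 0.18.

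Genes that respond to IFN-γ had a median of 0.08 over 22 tested members, 18 of them positive, and 0 were below an unadjusted *P* of 0.05. *Cxcl9*, a chemokine gene that draws activated T cells, was 913, 1118, 667, and 1039 CPM with anti-PD-1 and 624, 890, 1040, and 593 CPM without it. In 3 pairs it was higher and in the PancVAX pair lower (log2 fold change, 0.23, with a 95% interval of -0.30 to 0.75), and the fold change was 0.32 with the PancVAX plus anti-PD-1 pool from whole tumor alone. *Nos2*, the inducible nitric oxide synthase gene, had 0.89 at 1.29 to 3.60 CPM against 0.378 to 2.02 CPM. MHC class II genes had a median of 0.06 over 10 members and class I genes 0.05 over 13. *H2-Ab1* ranged from 4647 to 6749 CPM with anti-PD-1 and from 5438 to 6372 CPM without it (log2 fold change, 0.06, with a 95% interval of -0.18 to 0.30), and had 0.16 with the PancVAX plus anti-PD-1 pool from whole tumor alone. *Cd74*, the invariant chain gene, had 0.08, *Tap2* 0.10, and *Erap1* 0.14.

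Interferon-stimulated genes had a median of -0.12 in C1qb+ cells over 16 tested members, 13 of them negative. *Ifit2* had -0.37 and *Oasl1* 0.32 (unadjusted *P* = 0.0243), which was 0.11 with the PancVAX plus anti-PD-1 pool from whole tumor alone. For PancVAX, with which most of these genes were called higher in CD8+ T cells, the median was -0.05 here with 0 calls.

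Genes of alternative activation had a median of -0.04 over 20 members and a wide range. *Arg1*, which encodes arginase, was 61.9, 81.0, 18.1, and 47.7 CPM with anti-PD-1 and 41.6, 103, 107, and 80.2 CPM without it. It was lower in 3 of 4 pairs, with the largest gap in the PancVAX pair (log2 fold change, -0.78, with a 95% interval of -1.77 to 0.20). *Cd163*, a scavenger receptor gene of resident-type macrophages, had -0.82 (unadjusted *P* = 0.00452), but was -1.27 in whole-tumor and 1.04 in Percoll libraries. *Mrc1* had -0.13. With the PancVAX plus anti-PD-1 pool from whole tumor alone *Arg1* had -0.70 and *Mrc1* 0.05. *Mmp12*, a macrophage elastase gene, was 90.2, 116, 86.8, and 75.4 CPM with anti-PD-1 and 65.4, 45.3, 50.1, and 49.4 CPM without it. All pools with the antibody lay above all pools without it, and 4 of 4 pairs were higher (log2 fold change, 0.81, with a 95% interval of 0.49 to 1.12). Of all tested genes, 5.65% were higher in 4 of 4 pairs. *Mmp12* is also among the leading genes picked by *P* over these same pools, so that separated groups and agreeing pairs follow in part from the choice. edgeR's adjusted *P* for *Mmp12* was 1.00 and that of DESeq2 was 4.81e-04. It had 0.62 in whole-tumor libraries, 0.73 in Percoll libraries, and 0.45 in cells with at least 10 *C1qb* UMIs.

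Genes of monocytes and young macrophages had a median of -0.19 over 13 members, 8 of them negative, and 3 were lower in 4 of 4 pairs, beside 6.37% of all tested genes. *F13a1* was 9.56 to 44.5 CPM with anti-PD-1 and 42.5 to 68.8 CPM without it (log2 fold change, -0.95, unadjusted *P* = 0.0339), and its fold change was -0.76 with the PancVAX plus anti-PD-1 pool from whole tumor alone. *Vcan* had -0.77, with -1.36 in whole-tumor and 0.30 in Percoll libraries. *Ly6c2* and *Ccr2*, markers of recruited monocytes, had -0.55 and -0.35. Among inflammatory genes, *Ccl2* had -0.40 and was lower in 4 of 4 pairs at 132 to 218 CPM against 199 to 294 CPM. *Il12b* had -1.67 (unadjusted *P* = 0.0126), where the PancVAX plus anti-CTLA-4 pool stood at 23.7 CPM and the others at 1.54 to 9.54 CPM. It had -0.97 in cells with at least 10 *C1qb* UMIs and -1.01 in cells with at least 2 UMIs of *C1qb* and *C1qa*. *Il1b* and *Tnf* had 0.05 and -0.10, and *Il1b* had 0.19 with the PancVAX plus anti-PD-1 pool from whole tumor alone. Complement genes had a median of -0.04 over 10 members, with *C5ar1* at -0.22. *C5ar1* was -0.07 with the PancVAX plus anti-PD-1 pool from whole tumor alone, -0.06 within whole tumor, and -0.43 within the Percoll preparation. Lysosome, lipid, and scavenger genes had a median of 0.00 over 18, with *Fabp5* at 0.20 and *Axl* at 0.10.

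**Figure D5:**
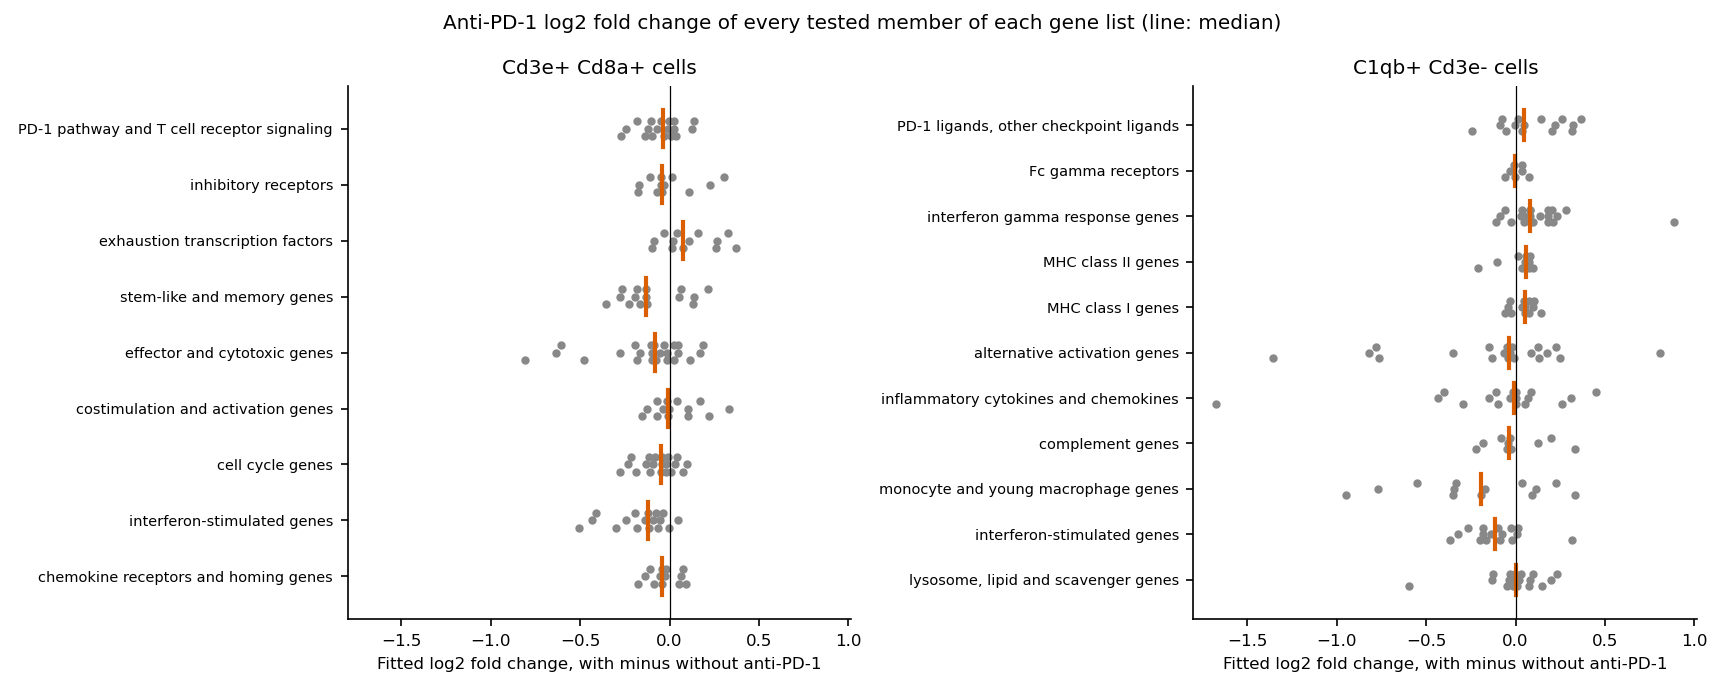
Fitted anti-PD-1 log2 fold change (x axis) of every tested member of 9 gene lists in CD8+ T cells (left) and 11 in C1qb+ cells (right), with 1 point per gene and a line at the median. Medians lay between -0.13 and 0.07 on the left and between -0.19 and 0.08 on the right, and no gene was called by edgeR.

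The gene with the smallest *P* in C1qb+ cells, *Tpsb2*, encodes a tryptase of mast cells. It had 14, 85, 131, and 73 UMIs in the pools with anti-PD-1 alone, both antibodies, PancVAX plus anti-PD-1, and all 3 agents, against 1, 5, 3, and 4 UMIs in the matched pools. The groups did not overlap (log2 fold change, 4.41, with a 95% interval of 3.21 to 5.61; edgeR adjusted *P* = 0.401, DESeq2 adjusted *P* = 3.15e-09), and edgeR called it with the matched pair as a block (0.00817%). *Cma1*, the mast cell chymase gene, had 3.92 with 12, 137, 181, and 33 UMIs against 3, 9, 5, and 4 UMIs, and 2.53 without the upper limits on genes and UMIs per cell. With fewer than 10 UMIs in every pool without anti-PD-1, both genes passed the filter on low counts through the pools with it, so that their fold changes and *P* values are a description of genes selected by the group in which they were high. Summed with the mast cell genes *Cpa3* and *Mcpt4*, most of the UMIs lay in very few cells in several pools. In the pool with both antibodies 1 cell held 296 of 349 UMIs of the 4 genes, in the PancVAX plus anti-PD-1 pool 5 cells held 577 of 628, and with all 3 agents 2 cells held 201 of 209. In the anti-CTLA-4 pool, which had no anti-PD-1, 1 cell held 45 of 71. With anti-PD-1 alone, 0 cells of the set held 10 or more such UMIs, and the 14 UMIs of *Tpsb2* lay in 13 of 1883 cells. Cells of the set with any *Tpsb2* UMI numbered 13, 20, 24, and 8 with anti-PD-1 and 1, 5, 3, and 4 in the matched pools. Among all passing cells they numbered 49, 40, 106, and 13 with anti-PD-1 and 7, 11, 11, and 16 in the matched pools. Over all passing cells, those with 10 or more UMIs of the 4 genes numbered 3, 2, 59, and 3 with anti-PD-1 and 2, 2, 0, and 7 without it, and 54 of the 59 came from the Percoll library that stood apart. These 3 companion genes and the count of 10 were chosen after the values were seen.

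Other leading genes of the set are known from several cell types. *Ifng* and *Xcl1*, which T and NK cells are known to make, had 1.496 and 1.102 at 1.16 to 6.44 CPM and 9.55 to 15.6 CPM with anti-PD-1. Without it they were at 0.557 to 2.17 CPM and 3.995 to 7.05 CPM, so that the groups overlapped for *Ifng*. With 6, 6, 14, and 23 UMIs in the pools without anti-PD-1, *Ifng* did not reach the limit of the low-count filter in every one of them. It did so in every pool with the antibody, so that its fold change is a description. In the same fit the *Ifng* fold change for PancVAX was 2.04 (adjusted *P* = 0.294 by edgeR). *Ifng* was 0.64 after leaving out cells with UMIs of *Cd3d*, *Cd3g*, *Cd8a*, or *Trac*, and *Xcl1* was 1.13 under that setting. *Xcl1* was 0.88 within whole tumor, 1.08 within the Percoll preparation, and -0.01 in cells with at least 2 UMIs of *C1qb* and *C1qa*. The 7 tested CD8+ T cell markers had a median of -0.12, with a summed level of 16.3 to 74.6 CPM against 22.0 to 49.7 CPM, and 4 NK cell markers had a median of 0.00. *Cd209a*, a dendritic cell gene, had -1.30 and *Siglech*, of plasmacytoid dendritic cells, -1.76. The 6 dendritic cell markers had a median of -0.08, with 3 positive and 3 negative. *Klk1*, a kallikrein gene, had -2.44 at 0.161 to 1.21 CPM against 1.07 to 4.74 CPM. *Pdpn* (podoplanin), *Hist1h1b* (a linker histone of dividing cells), and *Chst1* (a sulfotransferase) had -0.89, -0.53, and -1.70. Without the upper limits on genes and UMIs per cell, *Cd209a* was -0.42, *Hist1h1b* -0.22, and *Chst1* -0.48. *Chst1* had 9, 6, 9, and 6 UMIs with anti-PD-1 and *Klk1* 5, 13, 2, and 2, so that both passed the low-count filter through the pools without it, and their fold changes are a description in the same way. *Cd4* had 0.57 (unadjusted *P* = 0.0106), at 28.4 to 30.2 CPM against 14.0 to 26.4 CPM. Markers of tumor or epithelial cells were positive in 5 of 5 tested, at 140 to 675 CPM against 241 to 328 CPM, and fibroblast and endothelial markers had a median of -0.25, B cell markers -0.29, and neutrophil markers 0.02. The part of these cells in the leading genes was not tested.

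The last question was whether the anti-PD-1 difference itself depended on the other agents. By edgeR, 0 of 10402 genes were called for the interaction with PancVAX in CD8+ T cells (0%, smallest adjusted *P* 0.0605). An unadjusted *P* below 0.05 was found for 677 genes (6.51%). For the interaction with anti-CTLA-4, 0 were called (0%, smallest adjusted *P* 0.239), with 835 genes (8.03%) below an unadjusted 0.05. In C1qb+ cells both counts were 0 of 12239 genes as well (0% and 0%), with smallest adjusted *P* values of 0.951 and 1.00. There 413 genes (3.37%) and 223 genes (1.82%) were below an unadjusted 0.05. DESeq2 called 3 and 11 of 10402 genes in CD8+ T cells and 4 and 0 of 12239 in C1qb+ cells. Without a filter on low counts edgeR called 161 and 163 of 18633 genes in CD8+ T cells and 0 and 2 of 20799 in C1qb+ cells. For *Pdcd1* the interaction with anti-CTLA-4 was 0.35 on the log2 scale (SE 0.113; unadjusted *P* = 0.0146; adjusted *P* = 0.584) and that with PancVAX -0.11 (SE 0.113). The pairs without and with anti-CTLA-4 stood at 0.04 and 0.34 among unvaccinated pools and -0.13 and 0.28 among vaccinated pools. The interaction with PancVAX had a median standard error of 0.237 in CD8+ T cells, and 64.4% of genes had a 95% interval within ±1.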

How the data were processed

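Single-cell 5′ RNA libraries were aligned and counted by the authors with Cell Ranger 4.0.0 (mm10 per the submitters' processing notes), and the deposited values are raw UMI counts per gene and barcode. The barcode suffix names the library. As in the study's methods, genes in at least 3 barcodes and cells with 200 to 3000 genes, 1000 to 10000 UMIs, under 10% mitochondrial UMIs, and no hemoglobin UMI were kept (57355 of 144994 barcodes), from libraries of 77132398 to 176233225 UMIs. No doublet caller was run. UMIs of each cell set were summed per pool over both preparations and tested with edgeR 4.0.16 (quasi-likelihood, TMM, filterByExpr), with DESeq2 1.42.0 as an alternative. The pipeline was tested on simulated data. Cell shares were compared by an exact permutation test. T cell receptor contigs, deposited by the authors for Percoll libraries, were used as descriptions.

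Members and gene lists were chosen with earlier results of these data known. Named genes were *Pdcd1*, its ligands, *Ctla4*, the 2 members per list and the 5 genes per direction with the smallest unadjusted *P*, and role genes (*Tox*, *Tcf7*, *Gzmb*, *Mki67*, *Havcr2*, *Lag3*, *Ifng*, *Ccl5*, *Cxcl9*, *Arg1*, *Mrc1*, *Nos2*, *C1qa*, *H2-Ab1*, *Il1b*, *Tnf*) added later. Further list members and markers are named as examples. Alternatives covered normalization, filters, cell limits, sets, covariates, blocks, preparations, depth, and leaving out each pool. Results for 2 genes are not reported here.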

Additional observations from a re-analysis of the deposited data

Results flagged for a closer look

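A total of 6 values stood far from the other 3 pools of their arm, out of 164 groups of 4 pools examined (3.66%), and chance flags about 1 in 20. In C1qb+ cells the PancVAX plus anti-PD-1 pool was lowest among pools with anti-PD-1 for 3 class II genes, with *H2-Aa* at 5932 CPM (others 8192 to 8475), *Cd74* at 19010 CPM (others 26090 to 27360), and *H2-Ab1* at 4647 CPM (others 6603 to 6749). *Fcgr1* was lowest in the same pool, at 135.3 CPM (others 229 to 248). That pool contains the Percoll library that stood apart. With its whole-tumor library alone, the anti-PD-1 fold changes of *H2-Aa*, *Cd74*, and *H2-Ab1* were 0.17, 0.18, and 0.16 in place of 0.07, 0.08, and 0.06, and none was called.

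*Mcm2* in CD8+ T cells was highest in the PancVAX pool among those without anti-PD-1, at 50.6 CPM (others 44.5 to 45.02). The share of C1qb+ cells was highest in the isotype control pool, at 37.74% of passing cells (others 32.6% to 33.5%).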

How the results depend on the processing

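In CD8+ T cells the count of genes called for anti-PD-1 was 0, and became 6 by DESeq2, 16 without a filter on low counts, 2 with the matched pool block, and 0 to 2 leaving out 1 pool (2, *S100a9* and *Trav9-2*, without PancVAX plus anti-CTLA-4). In C1qb+ cells it was 0, and became 3, 4, and 1 under the same 3 settings, 1 in cells with at least 2 UMIs of *C1qb* and *C1qa*, and 0 to 1 leaving out 1 pool (*Tpsb2* without the pool of anti-PD-1 alone or that of PancVAX plus anti-PD-1, *Tcap* without isotype control). For the interaction with PancVAX in CD8+ T cells the count went from 0 to 3 of 10402 genes (DESeq2) and 161 of 18633 (no filter). For that with anti-CTLA-4 it went to 11 and 163 of the same totals. In C1qb+ cells it went to 4 of 12239 by DESeq2 for PancVAX and to 2 of 20799 without a filter for anti-CTLA-4. The cause was not tested. No gene was called within either preparation, with preparations thinned to equal UMIs, or with the PancVAX plus anti-PD-1 pool from whole tumor alone, a setting chosen after seeing the data, like that of 10 *C1qb* UMIs.

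Leaving out 1 pair, the share difference ran from 0.5671 to 3.374 points for CD8+ T cells and from -6.884 to -2.913 points for C1qb+ cells, and under the other settings from 1.558 to 2.906 and from -4.5 to -1.952. Of the named genes' fold changes under alternatives, 39 of 917 in CD8+ T cells and 36 of 986 in C1qb+ cells changed sign.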

Other observations

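The receptor contigs of the Percoll libraries also give the clonal makeup of the CD8+ T cells, described here after the values were seen and without a test. Cells of 1 pool were counted as a clone when both the TRB V segment and the CDR3 nucleotides were identical. The chance that 2 cells drawn from a pool shared a clone was 2.2%, 2.51%, 0.657%, and 1.37% with anti-PD-1 alone, both antibodies, PancVAX plus anti-PD-1, and all 3 agents, against 1.69%, 2.09%, 0.421%, and 0.814% in the matched pools. It was higher with anti-PD-1 in 4 of 4 pairs, while the arms overlapped and vaccinated pools were below unvaccinated ones. Cells in clones of 2 or more made up 63% to 76.6% with the antibody and 51.7% to 75.3% without it, from 437 to 759 and 224 to 555 cells with a TRB contig, and this share rises with the number of cells. The PancVAX plus anti-PD-1 library, which stood apart, had a TRB contig in 70.1% of its CD8+ T cells against 83.9% to 91.8% in the others. The largest clone held 11%, 8.55%, 3.94%, and 10.4% of cells with anti-PD-1 and 6.25%, 10.5%, 2.76%, and 5.1% without it. The number of mice behind each pool was not given, so that clones of a single mouse cannot be told apart from a response to the antibody.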
